A study of Rattus norvegicus with 9 samples.

Results

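The genes described here are p53 targets and regulators of apoptosis in rat liver. They were taken as all probe sets whose symbol in the platform annotation was exactly 1 of 37 listed genes, with the probe set of the highest mean log2 signal standing for each gene. The rule found 36 of the 37, among 14217 genes with 1 symbol on the array. Bax, a pore-forming protein of the mitochondrial outer membrane, was left out because its probe set carried a second symbol. Of the 36 genes, 35 lay above the filter on dim probe sets and were tested, beside 10432 tested genes in all. Bik, a BH3 protein, lay under it.

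Livers of 9 Wistar rats were measured on a 1-colour Affymetrix array, 3 of them controls, 3 labelled model and 3 labelled drug, which the series' title ties to a compound called 7-P. They were picked at random from 36 rats, 12 to a group, all labelled male and weighing 180 to 220 g. The sources used here do not give the model treatment, the nature or dose of 7-P, or the age of the rats, nor whether drug rats also received the model treatment. Tissue pieces were not described, so fewer cells of a type and less RNA per cell cannot be told apart.

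The transcription factor p53 is stabilised by DNA damage and other stress. It switches on genes that halt the cell cycle, such as Cdkn1a, that remove p53 again, such as Mdm2, and that push the mitochondria towards apoptosis, such as Bbc3. In the mitochondrial route, BH3 proteins free Bax and Bak1 to open the outer membrane, while Bcl2, Bcl2l1 and Mcl1 hold them back. Released cytochrome c then lets Apaf1 activate Casp9. In the death receptor route, Fas or Tnfrsf1a recruits Fadd, Ripk1 and Casp8, and hepatocytes join the routes by cleaving Bid. Xiap, Birc2, Birc3 and Cflar restrain caspases or their activation, and hepatocytes depend strongly on Mcl1 and on NF-kB induced inhibitors for survival.

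The RefSeq promoter table held 29 of the 37 genes, in the rat build GRCr8. The stretches below are shown because a p53 half-site consensus was found in the 250 bases before the start used in that table in 5 of these 29 genes, where 6.64% of 33469 promoters held it. The consensus reads the same on both strands. Capitals mark the 10 matching bases, and 10 bases are given on either side, 5′ to 3′ on the strand of the gene. The windows are chr20:7150721-7150750 (plus strand) for Cdkn1a, chr10:25685089-25685118 (minus) for Ccng1, chr20:46948537-46948566 (plus) for Sesn1, chr4:97486828-97486857 (minus) for Gadd45a and chr9:67679416-67679445 (plus) for Cflar.
Cdkn1a: tggctttcagGAACATGTCTtgacttgttc
Ccng1: agacctgcccGGGCAAGCCTtggcattgaa
Sesn1: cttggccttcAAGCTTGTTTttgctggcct
Gadd45a: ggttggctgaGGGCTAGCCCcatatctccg
Cflar: tatgttttcaAGACAAGTTTtccctgtgtg
The first matching base lay 201, 232, 172, 48 and 123 bases before that start in this order. The starts used for Cdkn1a, Sesn1 and Cflar lie inside the annotated spans of these genes, downstream of their outermost starts. A match is a description of letters, and no binding was measured in these samples.

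A pair of promoters is shown whole because their genes differed most in drug against control livers (Phlda3) or stood apart in all 3 groups (Mcl1). Capitals mark matches, on either strand, to the GC box GGGCGG in Phlda3 and to the NF-kB consensus and an overlapping GC box in Mcl1. They span chr13:49744753-49745002 (plus) and chr2:185907918-185908167 (plus), the 250 bases before the start used in the table. For Mcl1 that start, too, lies inside the annotated span of the gene, downstream of its outermost start.
Phlda3: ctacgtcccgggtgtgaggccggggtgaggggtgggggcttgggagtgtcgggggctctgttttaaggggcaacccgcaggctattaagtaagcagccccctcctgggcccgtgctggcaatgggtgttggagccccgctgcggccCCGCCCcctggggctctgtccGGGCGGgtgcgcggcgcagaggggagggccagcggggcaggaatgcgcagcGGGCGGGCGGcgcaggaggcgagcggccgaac
Mcl1: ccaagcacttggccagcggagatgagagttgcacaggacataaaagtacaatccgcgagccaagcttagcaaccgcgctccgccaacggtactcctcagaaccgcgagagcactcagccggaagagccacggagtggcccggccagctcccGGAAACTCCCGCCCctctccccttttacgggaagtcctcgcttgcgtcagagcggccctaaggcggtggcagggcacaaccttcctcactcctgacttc
The NF-kB consensus was in 1 of the 29 promoters (Mcl1) and in 3.54% of all promoters, and the GC box in 21 of 29 and in 30.5%. CCAAT, searched on both strands, was in 13 of 29 and in 34.0%, TATAAA in 3 of 29 and in 12.9%, and TGACGTCA in 0 of 29 and in 1.59%.

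Some arrays went against their labels or stood apart. Xist, the X-linked RNA of female cells, lay between 8.06 and 10.9 (log2 signal) on 7 arrays, although all rats were labelled male, and at only 2.65 and 3.05 on control 2 and drug 3. Eif2s3y, which is Y-linked, was at 6.99 and 7.17 on control 2 and drug 3 and at most 2.53 elsewhere. The ratio of Gapdh signal at the 3′ to that at the 5′ end, which is higher where less of the 5′ end of a transcript was measured, lay between 1.52 and 3.14 in control, 4.09 and 12.7 in model and 1.31 and 9.20 in drug arrays. Within each group replicate 1 had the lowest ratio. The 9 hepatocyte markers on the array (of 10 listed) all passed the filter, with a mean log2 signal between 11.8 and 12.1 on every array.

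All values below are log2 signals after quantile normalization of the 9 arrays, and differences are log2 differences, each with its standard error (SE) from limma. To pass, a gene needed an adjusted p (Benjamini-Hochberg, over 18625 tested probe sets) below 0.05. None of the 35 genes passed in any of the 3 comparisons or in the limma F test over the groups, and neither did any other probe set. At an unadjusted p under 0.05 in the F test there were 5 of the 35 genes, against 8.09% of all genes tested. The map of all 35 genes shows how far each array lay from the mean of its gene.

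**Figure D1:**
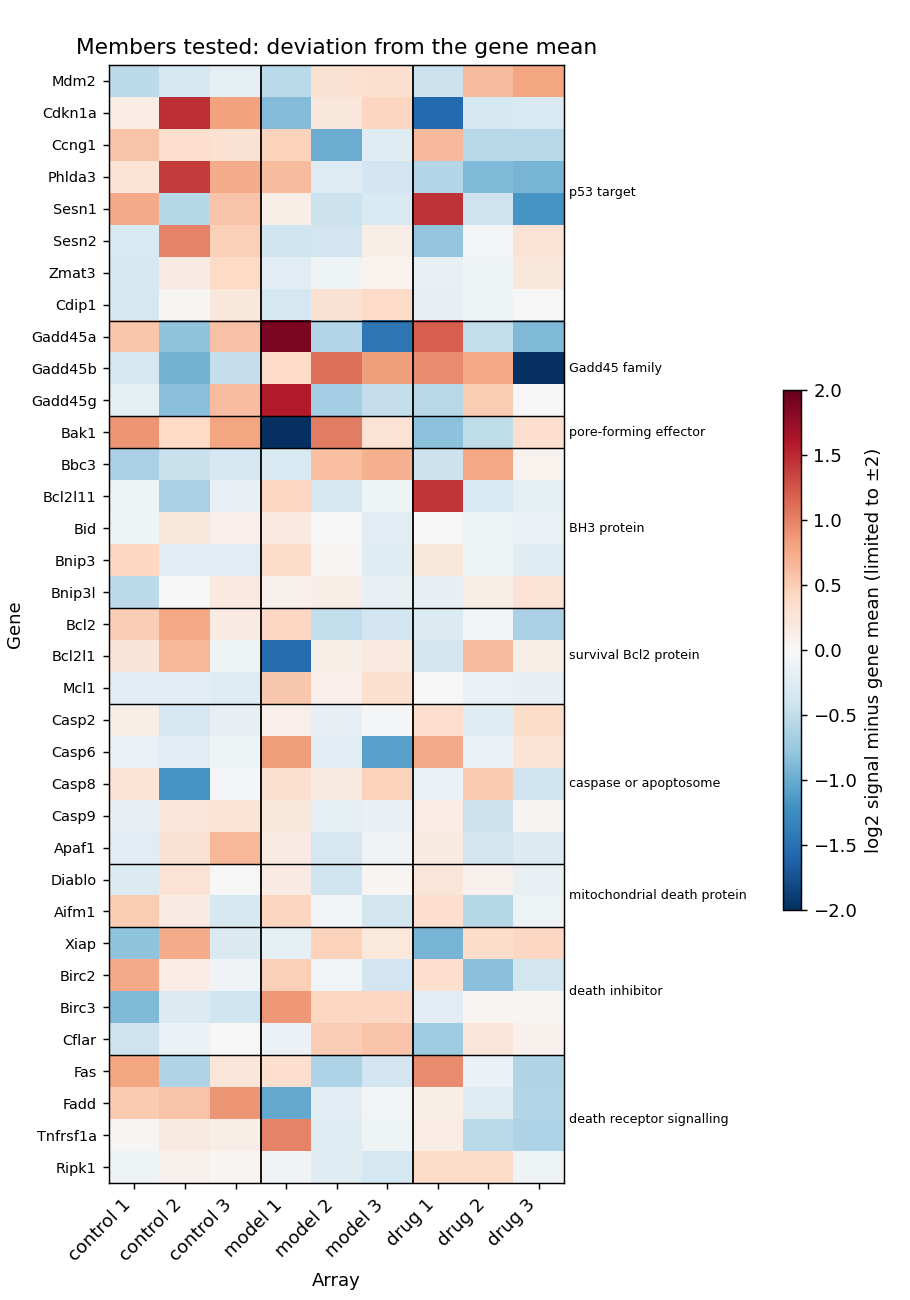
Each row is 1 of the 35 tested genes, grouped by role, and each column 1 array; colour gives the log2 signal minus the mean of that gene over the 9 arrays, limited to 2 in either direction. Model 1 stands out in Gadd45a, Gadd45g, Bak1 and Bcl2l1, and drug 3 in Gadd45b at 2.44.

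Model livers were set against control livers to ask what the model changed. Transcripts of the caspase inhibitor Birc3, of the survival protein Mcl1 and of the p53-induced BH3 protein Bbc3 were higher, and those of the death receptor adaptor Fadd lower, but none of these differences passed. An unadjusted p under 0.05 was reached by 4 of 35 genes (11.4%), 3 higher and 1 lower, where 13.1% of all tested genes reached it (7.08% higher and 6.05% lower). In 5 genes the groups did not overlap (14.3%), 4 of them higher and 1 lower, against a background of 24.8% (12.9% higher and 11.9% lower). The median over the 35 genes was -0.09, beside 0.01 over all genes tested, and 15 were higher and 20 lower.

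Drug livers were set against model livers to ask what differed with 7-P. Birc3, Mcl1 and the p53 target Phlda3 had all drug arrays below all model arrays, and these 3 of 35 genes (8.57%) compare with a background of 8.42% (3.36% higher and 5.05% lower). An unadjusted p under 0.05 was reached by 0 of the 35 genes in limma, against 3.44% of all genes (1.46% higher and 1.98% lower). The median was -0.06, beside -0.03 over all genes, with 15 genes higher and 20 lower.

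Drug against control livers asked how far the treated livers stood from controls, and the largest differences were lower transcripts of the p53 targets Phlda3 and Cdkn1a. With Fadd they made up 3 of 35 genes at an unadjusted p under 0.05 (8.57%), all lower, where 8.18% of all genes reached it (4.6% higher and 3.58% lower). Groups did not overlap in 7 genes (20.0%), against 14.2% of all genes (6.51% higher and 7.72% lower). These were Birc3 and Mcl1 (higher) and Cdkn1a, Phlda3, Bak1, Bcl2 and Fadd (lower). The median was -0.07, beside -0.03 over all genes. The comparisons share their groups in pairs, so a value on 1 group moves a pair of them.

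**Figure D2:**
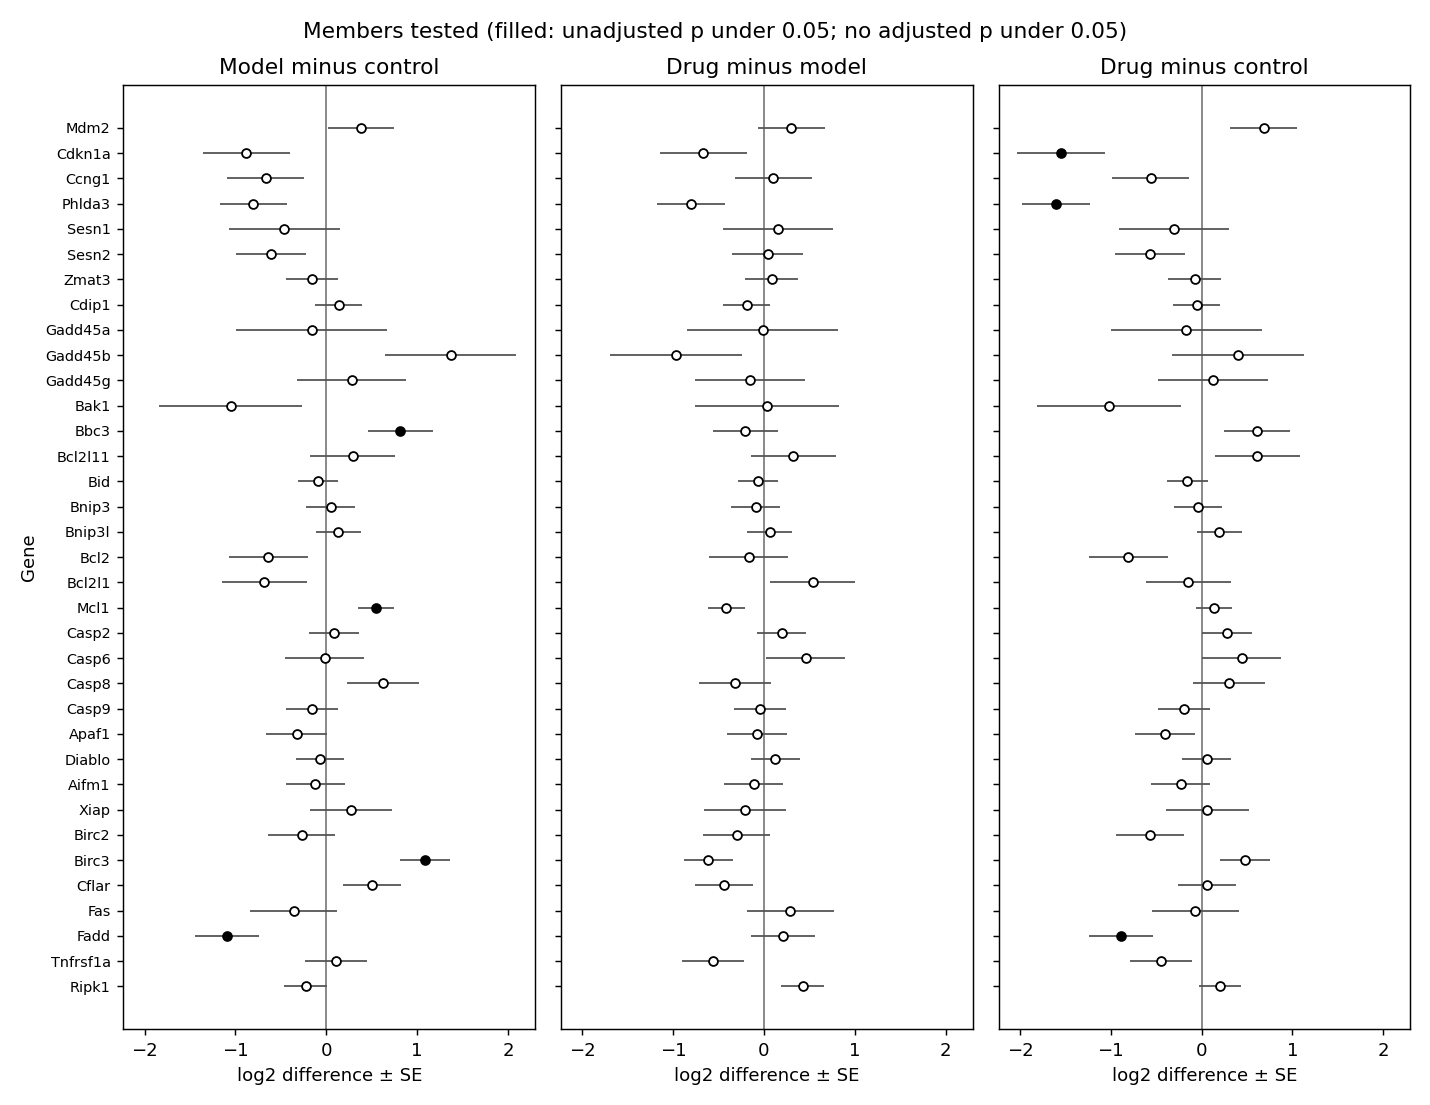
Points give the log2 difference and whiskers its SE from limma for the 35 tested genes in the 3 comparisons. Filled points mark an unadjusted p under 0.05, reached by 4, 0 and 3 genes; no adjusted p was under 0.05.

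Among the 8 p53 targets, 6 were lower in model than in control livers (median -0.53), and 7 were lower in drug than in control livers (median -0.43), with 0 and 2 at an unadjusted p under 0.05. Of all genes tested, 51.1% and 47.8% were higher in these comparisons, and 13.1% and 8.18% had such a p. Phlda3, which blocks Akt at the membrane, stood at 5.38, 6.52 and 5.85 in control 1, 2 and 3, at 5.75, 4.87 and 4.73 in model 1, 2 and 3, and at 4.54, 4.23 and 4.18 in drug 1, 2 and 3. Every drug array lay below every other array, while model 1 lay among the controls. The difference of drug from control was -1.60 (SE 0.371, a 3.04-fold lower signal), with an unadjusted limma p of 0.00151 and an adjusted p of 0.676. Over 20 alternatives it lay between -1.91 and -1.10, with adjusted p between 0.085 and 1.0, and without control 2 and drug 3 it was -1.24. Drug minus model was -0.80 (SE 0.371, limma adjusted p = 0.998), and -0.48 without model 1. Model minus control was also -0.80 (limma adjusted p = 0.418), and -0.50 without control 2.

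Cdkn1a encodes p21, the inhibitor of cyclin-dependent kinases that carries out the p53 cell cycle arrest. It was at 6.13, 7.45 and 6.78 in control, at 5.12, 6.20 and 6.40 in model and at 4.42, 5.63 and 5.67 in drug arrays. Drug arrays all lay below control arrays, and in each group replicate 1 was lowest. Drug minus control was -1.55 (SE 0.481, 2.92-fold lower), with an unadjusted limma p of 0.00924 and an adjusted p of 0.677. Without control 2 and drug 3 it was -1.43. Model minus control was -0.88 (limma adjusted p = 0.46) and moved to -0.55 without control 2 and to -0.49 without model 1.

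Mdm2, the ubiquitin ligase that removes p53, had higher means in model and drug livers than in controls. Its signals were 5.94, 6.12 and 6.28 in control, 5.92, 6.78 and 6.79 in model and 6.03, 7.11 and 7.25 in drug arrays. Replicate 1 of the model and drug groups stayed at the control level, so the groups overlapped. Drug minus control was 0.68 (SE 0.368, limma adjusted p = 0.70), 1.07 without drug 1 and 0.28 with the Gapdh ratio as a term. Another probe set of Mdm2, with a mean log2 signal of 5.19, was at 5.09, 4.87 and 4.21 in control and at 5.74, 5.90 and 5.90 in drug arrays, without overlap. It differed by 1.12 (SE 0.283), with an unadjusted limma p of 0.00271 and an adjusted p of 0.676. This probe set was chosen after its values were seen. The dimmest of the 3, with a mean of 3.55, differed by -0.86 between model and control, with overlap. Model 1 was at 0.77 on it, under the level of the filter, so that size is not exact. Model 2 and 3 were at 3.44 and 3.94, beside 3.88, 3.51 and 3.33 in control arrays. Drug minus control on the same probe set was 0.78, without overlap.

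Cdip1, a p53 target that links endoplasmic reticulum stress to death, depended on the probe set. The brightest of 3, which the rule took, differed by 0.14 between model and control (SE 0.261, limma adjusted p = 0.831). The others differed by -1.52 (SE 0.328) and -1.53 (SE 0.296), with unadjusted limma p of 0.000932 and 0.000419 and each with an adjusted p of 0.373. The dimmer of these was at 6.95, 6.67 and 6.51 in control, 5.23, 5.14 and 5.17 in model and 6.46, 5.45 and 5.65 in drug arrays, so that the model arrays lay below all others. On that probe set drug minus model was 0.67 (SE 0.296, limma adjusted p = 0.998). Which transcripts each probe set measures was not examined here.

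The other p53 targets overlapped between all groups. Ccng1, a cyclin that feeds back on p53, differed by -0.67 between model and control and the stress sensor Sesn2, which restrains mTORC1, by -0.61. Sesn1 differed by -0.46 and the RNA-binding protein Zmat3 by -0.16, and the limma adjusted p of these 4 genes in this comparison lay between 0.511 and 0.817. In drug minus model they lay between 0.04 and 0.16.

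The Gadd45 family, small stress proteins that act on growth arrest and p38 signalling, varied widely between replicates. Gadd45b, which is also an NF-kB target, was at 4.38, 3.79 and 4.25 in control, 5.12, 5.84 and 5.57 in model and 5.68, 5.5 and 2.44 in drug arrays. All model arrays and 2 of the drug arrays lay above the controls, and drug 3, which was low in Xist, lay below every other array. Drug 3 was also under the level of the filter, so sizes that include it are not exact. Model minus control was 1.37 (SE 0.725, 2.58-fold higher, limma adjusted p = 0.451), and 1.2 without control 2 and drug 3. Drug minus control was 0.40 with all arrays and 1.45 without drug 3, and drug minus model changed from -0.96 to 0.08 (limma adjusted p = 0.998 with all arrays). Gadd45a reached 7.33 in model 1 against 4.85 and 4.0 in model 2 and 3, and Gadd45g 7.07 against 4.80 and 5.01, so that neither group mean described its arrays.

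**Figure D3:**
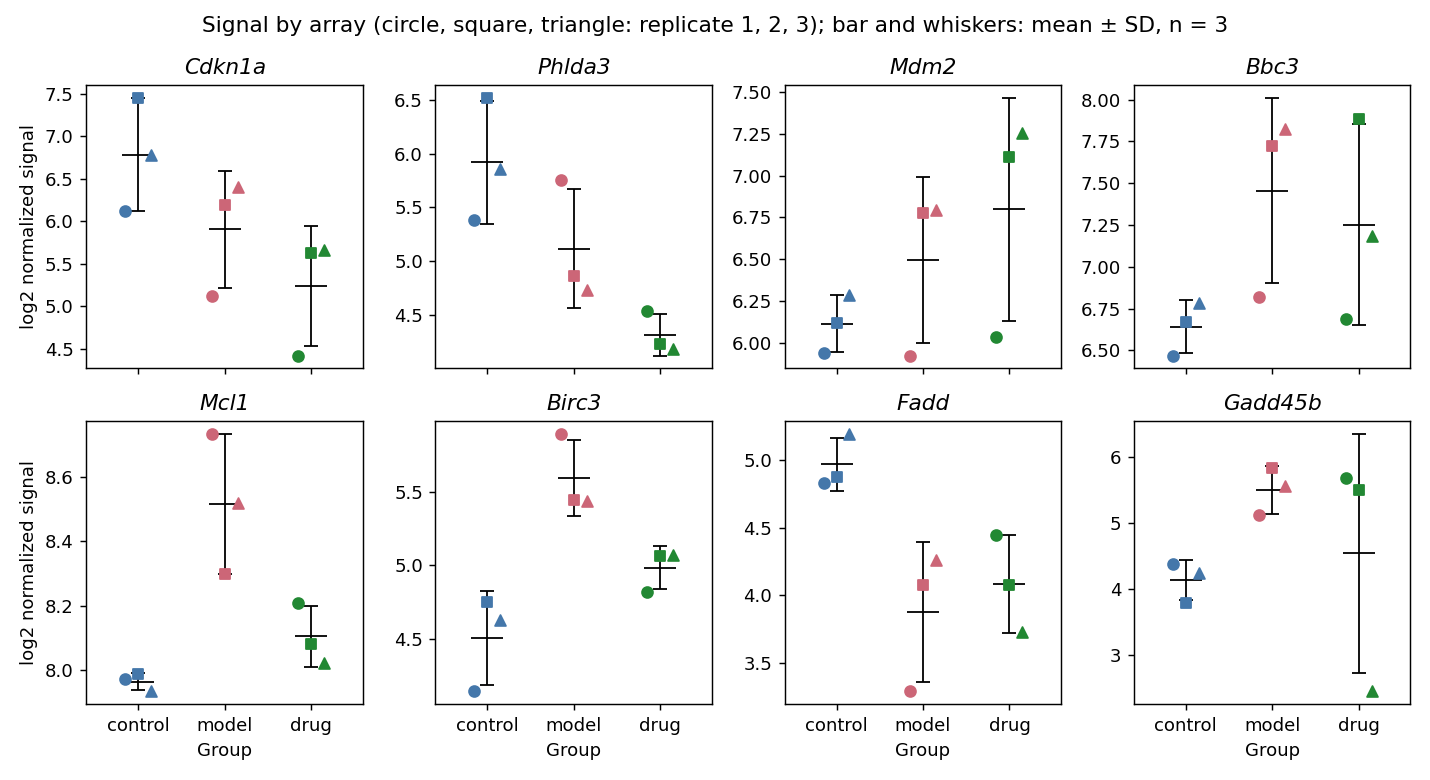
Points give the log2 normalized signal of 8 genes on each array, by group, with the mean and SD of 3 arrays; axes differ between panels. The model arrays of Birc3, Mcl1, Bbc3 and Gadd45b lie above all control arrays, and the drug arrays of Phlda3 lie below all others.

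Of the mitochondrial pore proteins only Bak1 was measured. It was at 4.18, 3.70 and 4.10 in control, 0.92, 4.32 and 3.59 in model and 2.49, 2.79 and 3.65 in drug arrays. Model 1 was near background while model 2 was the highest of all arrays, and every drug array lay below every control array. Drug minus control was -1.02 (SE 0.792, limma adjusted p = 0.756), but model 1, drug 1 and drug 2 lay under the level of the filter, so the sizes given for Bak1 are not exact.

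BH3 proteins, which sense damage and trigger the pore, were represented by 5 tested genes. In model minus control 4 of them had a higher mean (median 0.13) and 1 an unadjusted limma p under 0.05. The shares over all genes tested were 51.1% higher and 13.1% with such a p. Bbc3, also called PUMA, was at 6.47, 6.67 and 6.78 in control, 6.82, 7.72 and 7.83 in model and 6.69, 7.89 and 7.18 in drug arrays. Model arrays lay above all controls, model 1 by a small margin. The difference was 0.81 (SE 0.360, 1.76-fold higher), with an unadjusted limma p of 0.047 and an adjusted p of 0.412, and it was 0.19 with the Gapdh ratio as a term. Bcl2l11, or Bim, was higher by 0.29, with drug 1 at 5.92 and the other arrays between 3.84 and 4.91. Bid differed by -0.09, and the mitophagy receptors Bnip3 and Bnip3l by 0.05 and 0.13, with limma adjusted p between 0.799 and 0.943 for these 4 genes. On a dimmer tested probe set of each gene, model minus control was -0.35 for Bcl2l11, -0.22 for Bid and -0.13 for Bnip3l. Bik, under the filter, ranged from -0.36 to 3.05 and was not tested.

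The survival proteins did not share a direction. Mcl1 was at 7.97, 7.99 and 7.93 in control, 8.73, 8.30 and 8.52 in model and 8.21, 8.08 and 8.02 in drug arrays. The 3 groups did not overlap in any pair, with control lowest, drug between and model highest. Model minus control was 0.55 (SE 0.20, 1.47-fold higher), with an unadjusted limma p of 0.0201 and an adjusted p of 0.392, and drug minus model was -0.41 (limma adjusted p = 0.998). The sign of the first turned without normalization (-0.12, where the median of all genes was -0.43) and in the mean over both probe sets (-0.17), the second probe set, at a mean of 5.06, differing by -0.90.

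Bcl2 itself was at 3.89, 4.16 and 3.56 in control, 3.81, 2.89 and 3.00 in model and 3.11, 3.33 and 2.75 in drug arrays. Drug arrays lay below control arrays by -0.80 (SE 0.435, limma adjusted p = 0.701), on a dim probe set where the offset before the log gave -0.33. Bcl2l1, which encodes Bcl-xL, differed by -0.68 between model and control (limma adjusted p = 0.543) with model 1 at 4.20 against 5.85 and 5.93 in model 2 and 3. A dimmer tested probe set of Bcl2l1, with a mean of 2.91, differed by -1.56 without overlap (SE 0.697, limma adjusted p = 0.414). Its model arrays lay under the level of the filter, so that size is not exact. Another, under the filter and untested, differed by 0.16.

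Among the caspases and Apaf1, model minus control lay between -0.33 and 0.63 in the 5 genes, 0 of them at an unadjusted p under 0.05 in any comparison. Such a p was reached by 13.1% of all genes in model minus control, 3.44% in drug minus model and 8.18% in drug minus control. Casp9, the initiator caspase of the mitochondrial route, was at 4.57, 4.97 and 5.01 in control, 4.96, 4.55 and 4.58 in model and 4.88, 4.31 and 4.79 in drug arrays, which overlap. Its model minus control difference was -0.16 (SE 0.286, limma adjusted p = 0.822). Casp8, the initiator of the receptor route, had the highest of the 5 differences, 0.63 (limma adjusted p = 0.507), with control 2 at 4.26 and the other arrays between 5.06 and 5.97. Without control 2 and drug 3 it was 0.19. On a dimmer tested probe set of Casp8, with a mean of 4.33, model minus control was -0.0026. Casp6, an executioner, spread from 4.98 in model 3 to 6.91 in model 1. The differences of Casp2 and Apaf1 were 0.09 and -0.33. Those of the released mitochondrial proteins Diablo, which blocks inhibitors of apoptosis, and Aifm1 were -0.07 and -0.12.

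Among the inhibitors of death, 3 of 4 had a higher mean in model livers than in controls (median 0.39), and all 4 had a lower mean in drug than in model livers (median -0.37). Of these differences 1 and 0 had an unadjusted p under 0.05 in limma, against 13.1% and 3.44% of all genes tested. The share of all genes with a higher mean was 51.1% in model minus control and 47.1% in drug minus model. The counts for the inhibitors depended on the probe set. On the other probe set of Xiap the differences were -0.70 and 0.48, and on that of Cflar -0.01 and -0.40. Birc3, or cIAP2, an NF-kB target that ubiquitinates Ripk1, was at 4.14, 4.75 and 4.63 in control, 5.90, 5.45 and 5.44 in model and 4.82, 5.07 and 5.07 in drug arrays. As in Mcl1, the groups of Birc3 did not overlap in any pair and drug arrays lay between control and model. Among the probe sets the rule took for the 35 genes, its unadjusted limma p in model minus control was the smallest, at 0.00265, with an adjusted p of 0.384. Dimmer probe sets of Cdip1 had a smaller one. Model minus control of Birc3 was 1.09 (SE 0.274, 2.13-fold higher). It lay between 0.73 and 1.32 over 20 alternatives, with adjusted p between 0.133 and 0.759. Drug minus model was -0.61 (SE 0.274), with an unadjusted limma p of 0.0503 and an adjusted p of 0.998. Drug minus control was 0.48 (limma adjusted p = 0.713).

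Birc2, or cIAP1, is the neighbour of Birc3 on the chromosome. Its model minus control difference was -0.27 (limma adjusted p = 0.761), with overlap between all groups. Cflar, the FLIP inhibitor of Casp8 and its neighbour on the chromosome, was higher by 0.50 in model livers (SE 0.320, limma adjusted p = 0.513). Xiap, which binds active caspases, was higher by 0.27, with control 2 at 8.75 the highest array and drug 1 at 7.08 the lowest.

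In death receptor signalling, Fadd was at 4.84, 4.88 and 5.20 in control, 3.29, 4.08 and 4.26 in model and 4.45, 4.07 and 3.73 in drug arrays. All model and drug arrays lay below all control arrays. Model minus control was -1.09 (SE 0.352, 2.14-fold lower), with an unadjusted limma p of 0.011 and an adjusted p of 0.384, and drug minus control was -0.89 (limma adjusted p = 0.683). With an offset before the log these were -0.61 and -0.52, and without control 2 and drug 3 they were -1.14 and -0.76.

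Fas, the receptor of Fas ligand, differed by -0.36 between model and control (limma adjusted p = 0.751). A dimmer tested probe set of Fas, with a mean of 3.51, differed by 1.32 with overlap, control 1 lying at 0.08 (limma adjusted p = 0.548). Tnfrsf1a, the main TNF receptor, was at 7.97, 8.13 and 8.08 in control, 8.93, 7.71 and 7.86 in model and 8.10, 7.41 and 7.33 in drug arrays. Model 1 was the highest array, and drug minus model changed from -0.56 (SE 0.342, limma adjusted p = 0.998) to -0.18 without it. Ripk1, the kinase that decides between survival and death at that receptor, was at 5.94, 6.11 and 6.07 in control, 5.97, 5.79 and 5.69 in model and 6.40, 6.40 and 5.93 in drug arrays. Drug 3 lay inside the model range, and drug minus model was 0.43 (SE 0.236, limma adjusted p = 0.998).

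Some of the spread inside the groups went with the Gapdh ratio. In a limma fit with the groups and the log2 ratio, 11 of the 35 genes (31.4%) had a slope with an adjusted p under 0.05, against 12.3% of all genes tested. Signals rose with the ratio in Mdm2 (0.43 log2 units per doubling), Cdkn1a (0.56), Xiap (0.51), Bbc3 (0.37) and Cflar (0.34). They fell with it in Gadd45a (-0.91), Sesn1 (-0.71), Bcl2l11 (-0.55), Fas (-0.54), Ccng1 (-0.49) and Birc2 (-0.39), and the limma adjusted p of the 11 slopes lay between 0.0139 and 0.0468. The slopes of Phlda3 (-0.13), Birc3 (0.056) and Fadd (-0.0073) had limma adjusted p between 0.634 and 0.985. Without drug 1 the count was 0, and 0 of all genes passed. Without control 1, model 1, drug 2 and drug 3 it was 5, 4, 5 and 7, and with the beta-actin ratio in its place, chosen after seeing the data, it was 0. Replicate 1 was the highest array within each of the 3 groups in 7 of the 35 genes and the lowest in 8. The share over all genes was not counted, so these counts are no result about the 35 genes.

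With the ratio as a term, 9 of the 35 genes (25.7%) had an unadjusted limma p under 0.05 in model minus control, against 8.74% of all genes, and 0 had an adjusted p under 0.05. These were Bcl2l11 (1.23), Gadd45b (2.0), Mcl1 (0.70) and Birc3 (0.99), higher, and Cdkn1a (-1.83), Sesn2 (-1.21), Bak1 (-2.03), Bcl2l1 (-1.39) and Fadd (-1.08), lower. Cdkn1a was then at -2.07 in drug minus control (SE 0.293, limma adjusted p = 0.19). The other comparisons had 5 genes each (14.3%), against 5.8% of all genes in drug minus model and 8.96% in drug minus control. The ratio was higher on every model array (4.09 to 12.7) than on every control array (1.52 to 3.14). Model minus control with the term therefore rests on the slopes, and no slope of the 35 genes passed without drug 1 or with the beta-actin ratio. Whether the ratio, the rat or the model accounts for these values was not tested.

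**Figure D4:**
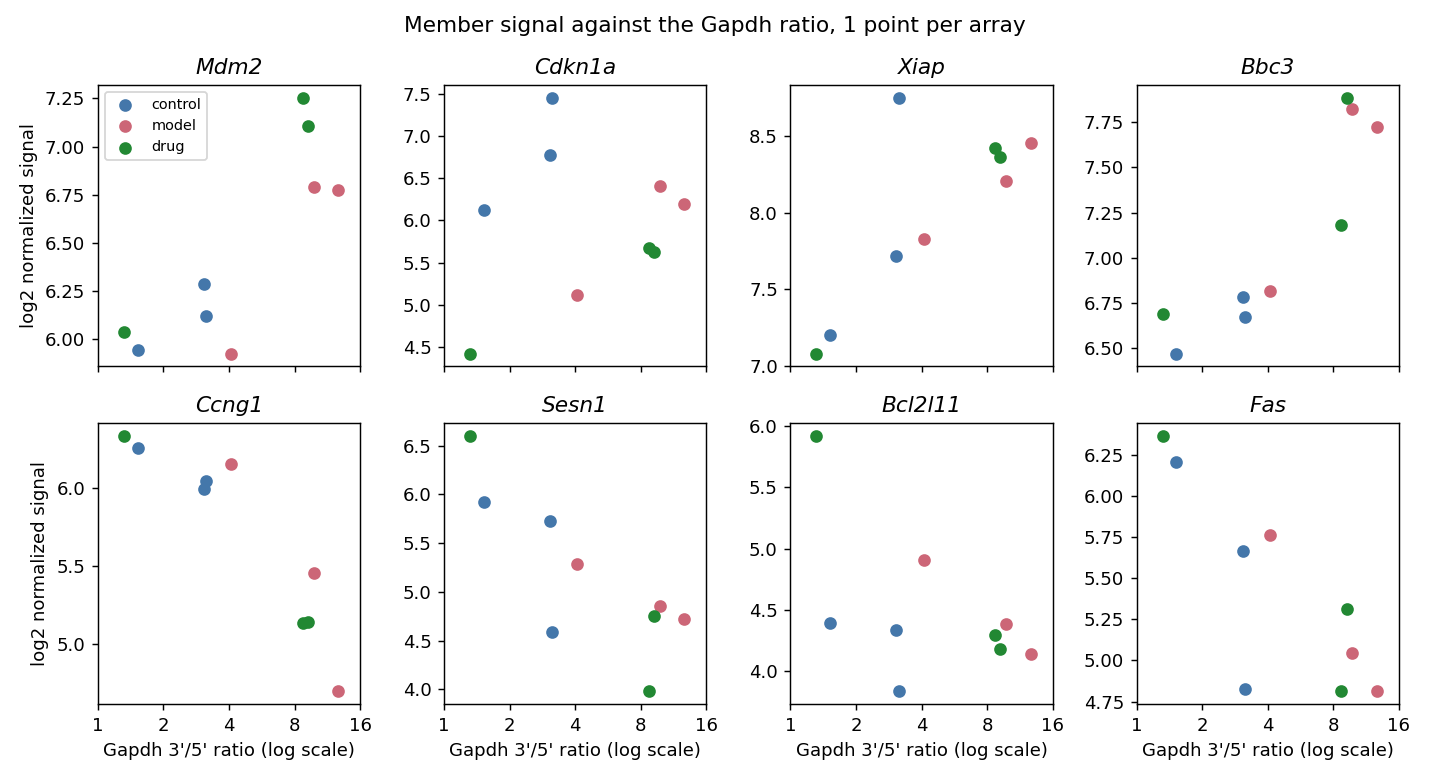
Each point is 1 array, with its Gapdh 3′ to 5′ ratio on a log axis and the log2 normalized signal of the gene, coloured by group. Mdm2, Cdkn1a, Xiap and Bbc3 (upper row) have a positive slope inside the groups, and Ccng1, Sesn1, Bcl2l11 and Fas (lower row) a negative slope.

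Markers of immune cells, which also express Birc3, Mcl1, Gadd45b and Cflar, were also measured on these arrays. The mean log2 signal of 10 Kupffer cell and macrophage markers (of 12 listed) lay between 6.09 and 6.87 in control, 6.81 and 7.73 in model and 6.63 and 7.65 in drug arrays. That of 5 neutrophil markers (of 8) lay between 3.12 and 4.14, 3.77 and 6.05, and 3.30 and 4.87, with Cxcr2 and Itgam under the filter. That of 10 lymphocyte markers (of 12) lay between 2.54 and 4.14, 3.67 and 4.15, and 3.71 and 4.26, with Cd4 and Cd79b under it. In model minus control, 3 of 3 tested neutrophil markers had an unadjusted limma p under 0.05, with differences between 1.66 and 2.83. So did 3 of 10 Kupffer cell and macrophage markers and 1 of 8 tested lymphocyte markers, all higher, where 13.1% of all genes reached it. None of them passed. The neutrophil marker Csf3r had a control mean of 2.71, under the level of the filter (2.82). Its mean over all arrays lay above that level only through the model and drug arrays. The untested neutrophil markers Cxcr2 and Itgam differed by -1.16 and 0.13 in the same comparison, on dim signals. Markers of the sinusoidal endothelium, 7 of 8 listed, lay between 6.17 and 6.57, 6.54 and 6.86, and 6.11 and 6.34. All 7 had a lower mean in drug than in model livers. In 4 of them drug and model arrays did not overlap (57.1%, against 8.42% of all genes). Of the markers tested, 8 of 10 for Kupffer cells and macrophages, 3 of 3 for neutrophils and 6 of 8 for lymphocytes also had a lower mean in drug livers. The count was 7 of 8 for stellate cells, 3 of 4 for erythroid cells, 3 of 9 for hepatocytes and 0 of 3 for bile duct cells. The untested Cxcr2 and Itgam had a higher mean in drug than in model livers, by 0.48 and 0.17. Of all genes tested, 47.1% were higher in drug than in model livers. The part of these cells in the differences above was not tested.

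Other genes of the same pathways, taken from lists rather than by how they differed, gave 0 passing genes as well. Of 18 tested p53 pathway genes (of 30 listed) 8 had a higher and 10 a lower mean in model livers than in controls, and 1 had an unadjusted p under 0.05 in limma (5.56%, against the 13.1% of all genes). This was the exonuclease Aen, at -0.73 (SE 0.297, limma adjusted p = 0.401), followed by the repair nuclease Ercc5 at 0.66 and the desmosomal protein Perp at -0.62. In drug minus model 12 had a higher and 6 a lower mean, and those with the smallest p included the repair protein Ddb2 at 0.98 (SE 0.419) and Perp at 0.61, each with a limma adjusted p of 0.998. The mean of Perp was 7.16 in control livers and 7.15 in drug livers.

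Of 34 tested apoptosis genes (of 45 listed) 18 had a higher and 16 a lower mean in model livers than in controls, and 5 had an unadjusted p under 0.05 (14.7%, against the 13.1% of all genes). The necroptosis kinase Ripk3 was at 4.69, 4.26 and 4.50 in control and 5.55, 5.58 and 5.04 in model arrays, higher by 0.91 (SE 0.269, limma adjusted p = 0.384). Bclaf1 was higher by 1.08 (SE 0.331, limma adjusted p = 0.384). Endog, a mitochondrial nuclease, was at 5.65, 4.62 and 4.64 in control and 3.94, -1.62 and 2.08 in model arrays, where model 2 and 3 lay under the filter, so its size is not exact. In drug minus model the TNF receptor Tnfrsf1b (1.52), the adaptor Tradd (0.52) and Siva1 (0.63) had the smallest p, each with a limma adjusted p of 0.998. Tnfrsf1b was at 2.04 and 2.25 in model 2 and 3, under the level of the filter, so its size is not exact either.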

How the data were processed

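The deposited values were linear signal intensities, 1 for each probe set and array, made by the authors with GCOS 1.2, per the submitters' processing notes. Scaling was not given in the sources used here, and trimmed means (2% at each end) of 33.2 to 80.4 showed no common scale. After 57 control probe sets were left out, log2 signals of 31042 probe sets were quantile normalized, which sets all changes relative to the total. Probe sets with a mean at or above the 40th percentile (18625) entered a linear model with a term for each group, with an intensity trend and two-sided tests (limma 3.58.1 under R 4.3.3). The number of arrays limits the precision. An exact permutation test of 3 against 3 arrays cannot give a p under 0.1. The labels name 3 rats to a group as the replicates. The fit was tested on simulated data.

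Genes and lists were chosen with earlier results of these data known. Values on every array are given for the 6 genes with the smallest unadjusted p in each comparison and for Mdm2, Cdkn1a, Bcl2 and Casp9. Bax was meant to be among the latter, but the symbol rule left it out. From each pathway list the 3 genes with the smallest p in model minus control and in drug minus model were named, apart from an item that is not reported here. Further values on single arrays were chosen after they were seen. Alternatives were other scalings, an offset of 16 units, other filters, averaging the probe sets of a gene, a replicate block, only the groups compared, a Gapdh term and arrays left out.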

Additional observations from a re-analysis of the deposited data

How the results depend on the processing

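None of the 35 genes passed in any comparison under 20 alternatives each. Of 720 values of 12 named genes under them, 28 were opposite in sign and 0 passed. The median of the genes in model minus control was -0.53 without normalization, 0.031 with the trimmed mean and 0.076 with the Gapdh term, where that of all genes was -0.43, 0.13 and -0.0032. In drug minus control it was -0.44 without normalization and 0.053 with the Gapdh term. After averaging the probe sets of each gene it was 0.090 in drug minus model. The number of genes that followed the Gapdh ratio lay between 0 and 10 with 1 array left out, was 5 without control 2 and drug 3, and was 0 with the beta-actin ratio.

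Opposite signs in model minus control were found without normalization for Mcl1 (-0.12), Tnfrsf1a (-0.54) and Mdm2 (-0.072), with the trimmed mean for Casp9 (0.093) and with median centring for Tnfrsf1a (-0.21). They were found with the Gapdh term for Mdm2 (-0.35) and Casp9 (0.014), and with the mean of the probe sets for Mcl1 (-0.17) and Mdm2 (-0.063). In drug minus model the sign turned without normalization for Casp9 (0.031), without control 2 and drug 3 for Gadd45b (0.085), with the Gapdh term for Bbc3 (0.075), and with the mean of the probe sets for Mcl1 (0.10) and Casp9 (0.42). In drug minus control it turned without normalization for Mcl1 (-0.35) and Ripk1 (-0.10), with median centring for Mcl1 (-0.059), and with the mean of the probe sets for Mcl1 (-0.078) and Casp9 (0.085). With 1 array left out, model minus control lay between -0.28 and 0.34 for Tnfrsf1a. Drug minus model lay between -0.087 and 0.40 for Fadd, -0.34 and 0.12 for Bcl2, -0.15 and 0.14 for Casp9, -0.52 and 0.079 for Bbc3 and -1.53 and 0.085 for Gadd45b, and drug minus control between -0.16 and 1.45 for Gadd45b. The cause was not tested.

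The replicate numbers in the labels were not taken to pair the arrays, since not every pair of arrays with 1 number deviated together from the group means. Number 1 arrays correlated between 0.20 and 0.48, number 2 arrays between -0.01 and 0.08 and number 3 arrays between 0.06 and 0.18. With the replicate block 0 of the 35 genes and 3 of all probe sets passed in model minus control. Each number occurs once in every group, so the block leaves the differences themselves as they are. At an unadjusted p under 0.05 the block gave 5, 1 and 6 genes, where all genes gave 20.1%, 5.55% and 12.8%. For 3 of 9 arrays the array of the same number correlated best in both other groups.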
